A study of Mus musculus and synthetic construct with 3 samples.

Results

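Collagen hexagons in the wall of abdominal aortic aneurysms (AAAs) were compared by whether a macrophage hexagon lay beside them. A hexagon is a piece of section with 12 μm sides in which all captured RNA molecules were counted as unique molecular identifiers (UMIs). In AAA sections, a collagen hexagon was one with 3 or more UMIs of Col1a1, Col1a2, Dcn, Lum and Fbln1 together, 50 or more detected genes, and none of Ctsb, Lyz2, Gpnmb and Cd68. A macrophage hexagon had 50 or more detected genes and 2 or more UMIs of the last 4 genes. Collagen hexagons with a macrophage hexagon within 45 μm were called near, and the others away. The members were thus chosen by the measured UMIs of these 9 genes, and none of the 9 was tested. There were 702 collagen hexagons among 10196 kept hexagons in the AAA sections and 11617 in all sections, and 317 were near and 385 away.

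All mice, controls included, were male, carried the Apoe -/- genotype, in which the gene for apolipoprotein E is disrupted, and were fed a normal diet. Angiotensin II (AngII) or saline was delivered from a minipump under the skin for 4 weeks to mice that the labels give as 16 weeks old. Suprarenal aortas of 3 mice with AAA after AngII and of 3 controls given saline were cut at 10 μm and placed on 1 Seq-Scope array, as 10 sections per condition. The AAA mice are those in which an aneurysm formed, and the 10 AAA sections come from 3 mice, so the mouse was the replicate. No label ties a barcode to a section, and sections were told apart by fitting the positions on the array to the section outlines that the study gives. A hexagon can hold parts of several cells, so more cells of a type and more RNA per cell cannot be told apart.

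The adventitia, the outer layer of the aorta, is built by fibroblasts that secrete type I and type III collagen together with small proteoglycans such as decorin, lumican and biglycan, which bind to collagen fibrils. In AngII-infused mice the adventitia thickens and macrophages gather in it and at sites of dissection. Macrophages degrade matrix and dead cells in lysosomes, and they and fibroblasts exchange growth factors, chemokines and matrix proteins over short distances.

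Near collagen hexagons were found in all 3 AAA mice and in all 10 sections. AAA mouse 1 had 449 collagen hexagons, of which 230 (51.2%) were near. AAA mouse 2 had 74, of which 40 (54.1%) were near. AAA mouse 3 had 179, of which 47 (26.3%) were near. Mouse 3 thus had the lowest share, and its exact 95% binomial interval, 20.0% to 33.3%, lay below those of mouse 1 (46.5% to 55.9%) and mouse 2 (42.1% to 65.7%). These intervals cover counting error only, and hexagons of one section are not independent of each other. By section the share ran from 10.5% to 60.7%. The 4 sections of mouse 3 held 10.5% to 31.3%, and the 6 sections of mice 1 and 2 held 46.6% to 60.7%.

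**Figure D1:**
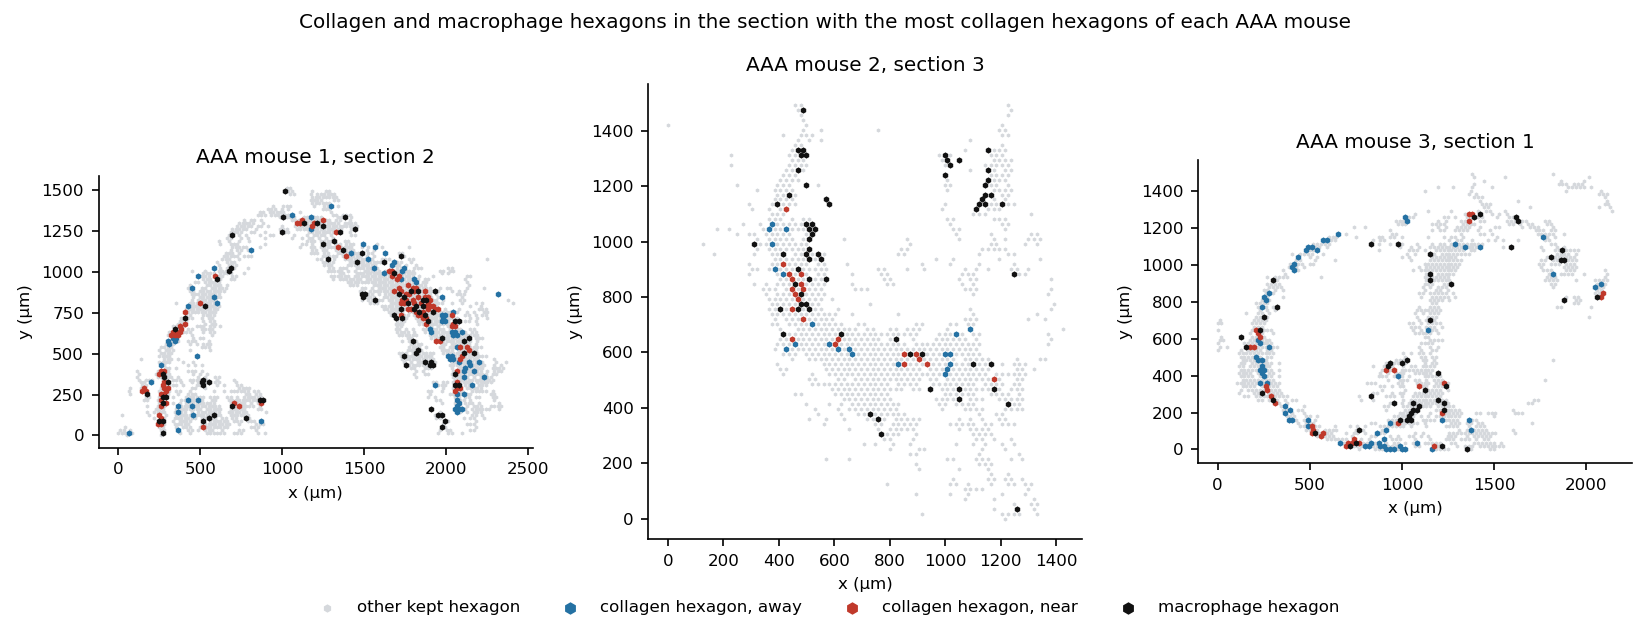
Positions (μm) of kept hexagons in the section with the most collagen hexagons of each AAA mouse. Near collagen hexagons (red) have a macrophage hexagon (black) within 45 μm, away ones (blue) have none, and other kept hexagons are grey.

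The rule set these numbers, and its thresholds lay in a dense part of the data. Of the near hexagons, 182 had 1 macrophage hexagon within 45 μm, 86 had 2, 41 had 3, 7 had 4 and 1 had more. The median distance to the nearest macrophage hexagon was 20.8 μm on the near side in each mouse, which is the distance between adjoining centers. On the away side the median was 74.9, 73.5 and 126 μm in mice 1 to 3. Just inside the limit, 144 collagen hexagons had their nearest macrophage hexagon at 36 to 42 μm, and just outside it 89 had it at 45 to 55 μm. Of the members 53.6% had exactly 3 collagen UMIs, and 838 hexagons without a macrophage gene had 2 and were not members. Of 921 AAA hexagons with 3 or more collagen UMIs, 219 (23.8%) were left out because they held a macrophage gene. In control sections only 20 collagen hexagons were found, 2 of them near, so no comparison was made there.

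The 5 collagen genes are given as a description, since they chose the members. They made up 2.92%, 2.46% and 3.56% of UMIs near macrophage hexagons in mice 1 to 3, and 3.36%, 2.71% and 4.17% away from them. The near share was the lower one in each mouse, but near hexagons also held more UMIs in total. Per hexagon, the UMIs of the 5 genes averaged 4.63, 3.83 and 3.55 near and 3.83, 3.53 and 4.02 away. By that count mice 1 and 2 were higher near and mouse 3 was lower. Col1a2, a chain of type I collagen, had the most UMIs of the 5 (1218), followed by Col1a1 (607), Dcn (454), Fbln1, a fibulin of the matrix (345), and Lum (251). Col1a2 stood at 122, 96.4 and 160 UMIs per 10000 near and 131, 106 and 208 away. Fbln1 stood at 39.2, 28.9 and 23.4 near and 45.2, 33.9 and 35.4 away.

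Near collagen hexagons held more UMIs than away ones in each mouse. The median number of UMIs per collagen hexagon was 139.5 near and 105 away in mouse 1, 145.5 and 109.5 in mouse 2, and 91 and 86.5 in mouse 3. The near side was higher in 3 of 3 mice, by 25 ± 17.8 (SD, n = 3 mice). The exact permutation test over pairs gave p = 0.25, which is the smallest that 3 pairs allow. A macrophage hexagon needed 50 or more detected genes and 2 or more UMIs of the macrophage genes. The near side was thus chosen by counts in neighboring hexagons, and this p-value takes no account of that choice. The mean number of kept hexagons among the 18 places within 45 μm was 14.8, 15.7 and 11.9 near and 11.6, 13.9 and 9.64 away (difference 2.40 ± 0.736, SD, n = 3, the same exact permutation test, p = 0.25). Macrophage hexagons were themselves kept ones, so by the rule each near hexagon had at least 1 kept neighbor. The rule thus favors a higher count near, and the p-value takes no account of this. How much of the difference in UMIs or in kept neighbors the rule sets was not tested.

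Near collagen hexagons also had a smooth muscle hexagon close by more often in each mouse. A smooth muscle hexagon, with 3 or more UMIs of Acta2, Tagln, Myl9 and Myh11 together, was found within 45 μm of 48.3%, 57.5% and 38.3% of near hexagons and of 29.2%, 26.5% and 32.6% of away ones in mice 1 to 3. The difference was 18.6 ± 12.7 percentage points, with the near side higher in 3 of 3 mice (SD, n = 3, exact permutation test, p = 0.25, the smallest possible). The groups did not overlap. Smooth muscle hexagons also had to be kept ones, and a macrophage hexagon could count as one. Kept neighbors were more frequent on the near side, and the part of that density in this difference was not tested. The hexagons themselves held a UMI of a contractile gene in 44.3%, 50% and 55.3% of cases near and in 47.5%, 38.2% and 47.0% away, so the 2 sides overlapped. Mitochondrial genes took 5.00%, 5.72% and 5.48% of UMIs near and 5.64%, 6.14% and 5.47% away. UMIs outside exons were 49.0%, 55.1% and 53.4% of the total near and 51.4%, 55.6% and 54.0% away.

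**Figure D2:**
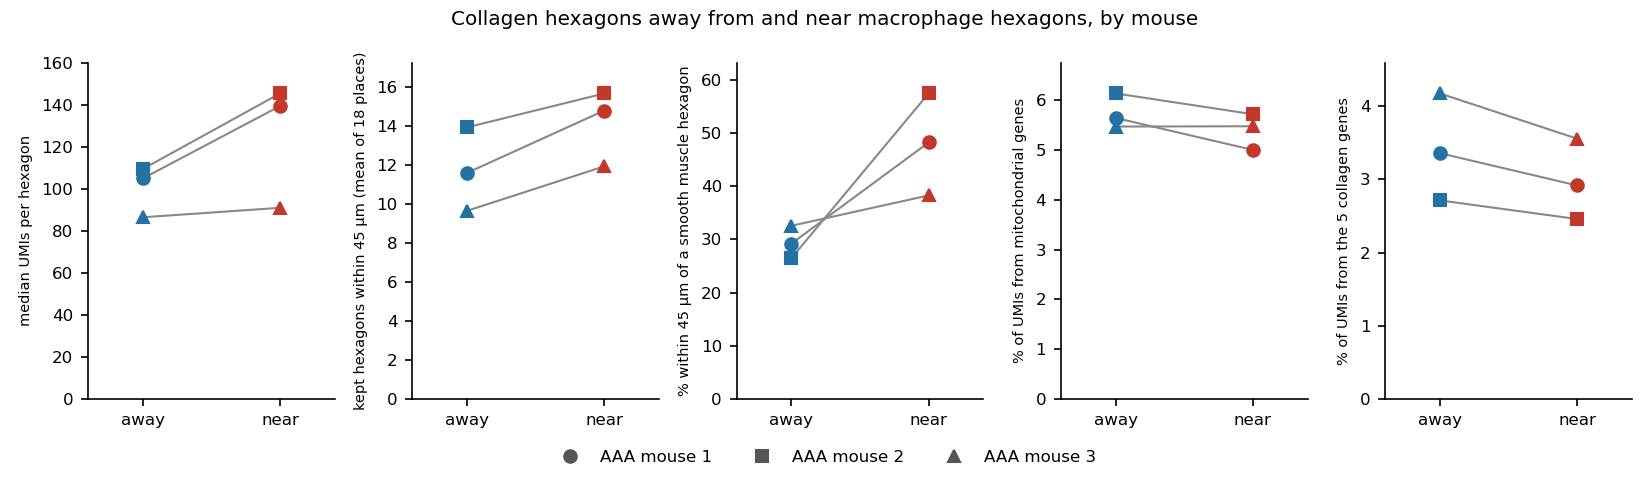
Median UMIs per hexagon, kept hexagons within 45 μm, percentage of hexagons near a smooth muscle hexagon, percentage of mitochondrial UMIs and percentage of UMIs of the 5 collagen genes, away and near, with 1 line per AAA mouse and every axis starting at 0. The first 3 were higher near in 3 of 3 mice. The share of the collagen genes was lower near in 3 of 3 mice, but their mean UMIs per hexagon only in mouse 3.

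No gene outside the rule passed the test between near and away collagen hexagons. Exonic UMIs, so read from an unnamed column of the matrix, were summed per mouse and side, which gave 4424 to 36516 UMIs per sum. Of 11956 genes outside the rule with a UMI in the members, 95 passed the filter on low counts (edgeR, paired by mouse). Of these 95, 0 were higher and 0 were lower near macrophages at an adjusted p under 0.05 (0% called, Benjamini-Hochberg), and the smallest adjusted p was 0.923. At an unadjusted p under 0.05 there were 2, among them Lgals1, and DESeq2, run over 11956 genes, called 0 and had 0 at an unadjusted p under 0.05. The median log2 fold change over the 95 genes was 0.03, and 50 of them (52.6%) were above 0. The 95% interval of the log2 fold change had a median width of 0.66 to either side, and it lay between -1 and 1 for 73 of the 95 genes. For those genes a doubling lies outside the interval, while smaller changes may lie within it. The intervals rest on degrees of freedom pooled over the 95 genes, not on those of 3 mice. In simulated sums of the same size, with their scatter assumed, filter and test together found 73.9% of genes changed 4-fold and 33.3% of genes changed 2-fold. Changed genes that fell out at the filter counted as not found. There, 59 of the 96 genes tested were unchanged, and all mice shared a common baseline. These shares need not hold for the real sums.

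The matrix proteins with the smallest p values were Sparc and Fn1. Fn1 (chromosome 1, 71585520 to 71653200, minus strand, GRCm38) encodes fibronectin, a matrix glycoprotein that binds integrins. It was measured at 26.6, 32.1 and 42.6 UMIs per 10000 near and at 23.2, 22.6 and 23.6 away in mice 1 to 3. All 3 near values were above all 3 away values, which held for 4 of the 95 tested genes (4.21%, Fn1, Sparc, Bsg and Rpl39), and all near values were below all away values for another 4 (4.21%, Hp, Mptx1, Rpl32 and Rps16). The Fn1 log2 fold change was 0.41 (95% interval -0.05 to 0.87, unadjusted p = 0.0786, edgeR adjusted p = 0.923), and near was the higher side in 7 of the 8 sections with 5 or more hexagons on each side. Over 19 other settings the value ran from -0.41 to 0.61, and with the hexagon grid shifted it was -0.11.

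Sparc (chromosome 11, 55394500 to 55423183, minus strand, GRCm38) encodes osteonectin, which binds collagen and takes part in its assembly. It stood at 29.6, 27.3 and 27.7 UMIs per 10000 near and at 21.2, 13.6 and 26.7 away. Mice 1 and 2 were lower away, and in mouse 3 the 2 sides were close. The log2 fold change was 0.45 (95% interval -0.02 to 0.92, unadjusted p = 0.0615, edgeR adjusted p = 0.923), with near higher in 7 of 8 sections. With the shifted grid it was -0.13, and over 21 other settings it ran from -0.13 to 0.90.

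Bgn (chromosome X, 73483602 to 73495933, plus strand, GRCm38) encodes biglycan, a small leucine-rich proteoglycan related to decorin. It was the gene with the smallest p on the lower side that moved the same way in all 3 mice. It stood at 36.4, 20.9 and 38.3 UMIs per 10000 near and at 46.8, 22.6 and 49.5 away. Each mouse was lower near, but mouse 2 was low on both sides and the groups overlapped. The log2 fold change was -0.33 (95% interval -0.78 to 0.12, unadjusted p = 0.15, edgeR adjusted p = 0.923), with near higher in 1 of 8 sections. In each of 21 other settings the value was below 0, from -0.70 to -0.03, and in none did it pass the threshold.

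Mgp and Col3a1 had the most UMIs of the tested matrix genes, and their intervals lay close around 0. Mgp, an inhibitor of calcification, was the tested gene with the most UMIs (1442). It was at 153, 108 and 228 UMIs per 10000 near and at 157, 85.9 and 219 away, a log2 fold change of 0.06 (95% interval -0.27 to 0.39). Col3a1, the type III collagen chain, was at 109, 75.5 and 115 near and at 107, 76.8 and 120 away, a log2 fold change of -0.01 (95% interval -0.37 to 0.34). For both genes the mice differed from each other by more than the 2 sides of any one mouse did. Eln, which encodes elastin, was at 7.12, 11.2 and 14.9 near and at 8.40, 11.3 and 14.2 away, with a wider interval of -0.84 to 0.62 for the log2 fold change of -0.11.

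Igfbp4, Cst3, C3 and Selenop, which the paper lists among markers of its collagen-producing fibroblasts, stood at different levels from mouse to mouse. None of them passed the test. Igfbp4, which binds insulin-like growth factors, was at 46.0, 81.9 and 21.3 UMIs per 10000 near and at 40.8, 45.2 and 24.4 away, a log2 fold change of 0.31 (95% interval -0.12 to 0.74). Mouse 2 accounted for the widest gap, and without it the value was 0.12. Cst3, the cysteine protease inhibitor cystatin C, was at 89.0, 48.2 and 59.6 near and at 63.2, 31.6 and 77.8 away, a log2 fold change of 0.26 (95% interval -0.13 to 0.65). Mice 1 and 2 were higher near and mouse 3 was lower. C3, the central complement component, was at 44.6, 40.2 and 17.0 near and at 43.6, 43.0 and 17.3 away, a log2 fold change of 0.02 (95% interval -0.44 to 0.47). Selenop, a selenoprotein, was at 30.1, 24.1 and 17.0 near and at 22, 15.8 and 22 away, a log2 fold change of 0.34 (95% interval -0.15 to 0.83).

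Genes used by macrophages but not by the rule were lower in sum on both sides than in macrophage hexagons. None of the 37 genes of the macrophage and myeloid list, taken without those of the rule, passed the filter, 33 had a UMI in the members, and Itgam, Marco, Lyve1 and Timd4 had none. The list summed to 57.5, 67.5 and 63.9 UMIs per 10000 near and to 56.8, 52.0 and 55.8 away, against 91.3, 146 and 133 in macrophage hexagons of the same mice. In AAA hexagons without any gene of the rule it summed to 54.95, 59.15 and 63.07. Near was higher than away in 3 of 3 mice without overlap, though hardly so in mouse 1. The sums of mice 2 and 3 rested on 23 to 71 UMIs a side. C1qa, a complement subunit made by macrophages, was at 6.03, 11.2 and 0 near and at 4.40, 6.78 and 6.29 away. Cd5l, a secreted macrophage protein, had 11 UMIs in all members, at 0.822, 3.21 and 4.26 per 10000 near and at 1.20, 0 and 0.786 away, against 2.96, 28.9 and 11.3 in macrophage hexagons.

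Lysosomal genes did not pass the test in collagen hexagons. Psap, the precursor of the saposins that activate lysosomal lipid hydrolases, was at 32.0, 22.5 and 38.3 UMIs per 10000 near and at 28.4, 20.3 and 35.4 away, a log2 fold change of 0.16 (95% interval -0.30 to 0.62). It was higher near in 3 of 3 mice by less than the mice differed from each other, and it stood at 59.6, 92.9 and 63.9 in macrophage hexagons. Ctsd, the aspartic protease cathepsin D, was at 14.0, 17.7 and 23.4 near and at 13.2, 31.6 and 17.3 away, a log2 fold change of -0.03 (95% interval -0.65 to 0.60). The 30 lysosome genes, without those of the rule, summed to 156, 141 and 168 near and 133, 145 and 162 away, against 220, 279 and 256 in macrophage hexagons. Fth1, the ferritin heavy chain that stores iron, was at 16.4, 25.7 and 12.8 near and at 18.8, 13.6 and 15.7 away, and mice 1 and 3 were lower near while mouse 2 was higher.

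Genes of the smooth muscle list did not pass the test, and most tested ones were below 0. Acta2, smooth muscle α-actin, was at 24.9, 22.5 and 46.9 UMIs per 10000 near and at 29.6, 20.3 and 46.4 away, a log2 fold change of -0.12 (95% interval -0.58 to 0.34). Tagln, the actin-binding protein transgelin, was at 7.67, 4.82 and 31.9 near and at 16, 9.04 and 16.5 away, a log2 fold change of -0.38 (95% interval -1.10 to 0.34). Mice 1 and 2 were lower near and mouse 3 was higher. Flna, a filamin that crosslinks actin, was lower near in 3 of 3 mice, at 6.85, 8.03 and 10.7 against 8.01, 18.1 and 11.8, with a log2 fold change of -0.39 (95% interval -1.13 to 0.36). Of the 7 tested smooth muscle genes, 1 was above 0, and the median log2 fold change was -0.30, beside 0.03 over all 95. The sign of Flna was the other one in 2 of 11 other settings (0.42 on the shifted grid and 0.30 with 3 or more macrophage UMIs), that of Acta2 in 2 of 19 and that of Tagln in 1 of 14.

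Of 35 tested ribosomal protein genes, 18 were above 0 and the median was 0.03, and the lowest was Rpl32 at -0.44. Lgals1, the lectin galectin-1, named after its values were seen, was at 10.4, 11.2 and 14.9 near and at 6.80, 11.3 and 3.93 away (log2 fold change 0.76, unadjusted p = 0.0453). It was higher near in 2 of 3 mice.

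In all, 9 of the 95 tested genes (9.47%) were higher near in 3 of 3 mice and 11 (11.6%) were lower. Beside Fn1, Sparc and Psap, the higher ones included Serinc3, Actb, Bsg, Rps13 and Rpl39, with log2 fold changes from 0.26 (Actb, cytoplasmic β-actin) to 0.54 (Serinc3). The lower ones included Scp2 (-0.42), the elongation factor Eef2 (-0.24) and the ribosomal protein genes Rpl32, Rpl37 and Rps16. Also among them were Alb (-0.22), which encodes serum albumin, Hp (-0.27), which encodes haptoglobin, and Mptx1 (-0.28). Alb, made by hepatocytes, was at 73.1, 80.3 and 59.6 UMIs per 10000 near and at 74.0, 92.7 and 93.6 away. How a transcript typical of hepatocytes came to lie in these sections was not tested. The 9 genes of that list summed to 196, 226 and 204 near and to 215, 240 and 228 away, and to 188, 195 and 226 in macrophage hexagons. Their sum was lower near than away in each mouse. Apoe, the gene disrupted in all mice, was on that list and still had 436 UMIs in the members, at 44.1, 53.0 and 68.1 near and at 54.0, 56.5 and 39.3 away. A UMI does not tell which part of the gene was transcribed.

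**Figure D3:**
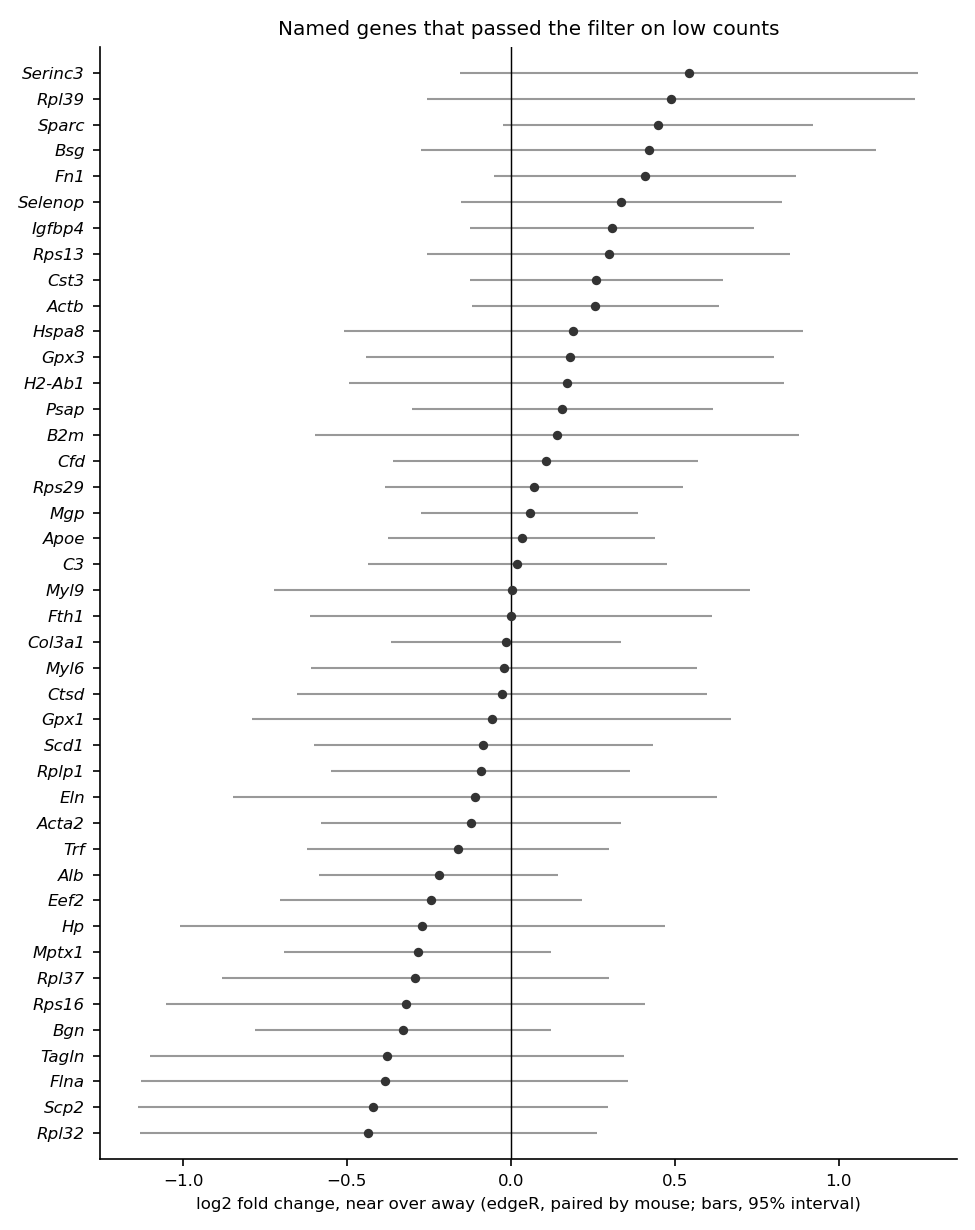
Log2 fold change (near over away, edgeR, paired by 3 mice) of named genes that passed the filter on low counts, with bars for the 95% interval. The interval of each gene shown includes 0.

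Of 27 lists, 17 had a tested gene, and 72 of the 95 tested genes were in a list. In each of these lists, 0 genes were called in either direction. The fibroblast markers that checked the members' label (Pdgfra, Dpt, Col3a1, Col5a1, Col6a1, Serpinf1, Igfbp4, Igfbp6, Clec3b and Mfap5) summed to 180 ± 10.6 UMIs per 10000 near and 162.5 ± 15.4 away (SD, n = 3). They summed to 90.7 ± 23.0 in macrophage hexagons and 93.5 ± 2.25 in the 4416 AAA hexagons without any gene of the rule. All 10 had a UMI in the members, but Col3a1 and Igfbp4 held most of both sums. Col3a1 averaged 99.9 near and 101.5 away, and Igfbp4 49.7 and 36.8. Col3a1 is, like Col1a1 and Col1a2 of the rule, a fibrillar collagen gene. Smooth muscle markers summed to 69.0 ± 27 near and 66.7 ± 22.8 away, adipocyte markers to 40.5 ± 11.7 and 34.5 ± 18.7, erythrocyte markers to 13.9 ± 6.45 and 9.59 ± 1.49, and endothelial markers to 3.87 ± 2.10 and 3.44 ± 3.01. In each of these 5 sets the ranges overlapped. The 12 macrophage markers outside the rule, all with a UMI in the members, summed to 29.8, 41.8 and 29.8 near and to 28.0, 24.9 and 25.2 away (33.8 ± 6.89 and 26.0 ± 1.74), without overlap, on 11 to 109 UMIs a side. These markers summed to 67.8 ± 18.6 in macrophage hexagons and to 28.1 ± 1.90 in the AAA hexagons without any gene of the rule. Their part in the near and away values of other genes was not tested.

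The summed level was higher near in 3 of 3 mice for 3 of the 27 lists and lower in 3 of 3 for 6. The higher ones were the macrophage list, the noncoding list and the matricellular and adhesion list. The last summed to 224, 193 and 334 UMIs per 10000 near and to 222, 127 and 288 away, and Mgp held the largest part of it. Lower near in 3 of 3 mice were proteoglycans, at 55.3, 35.3 and 53.2 against 62.4, 45.2 and 66.0, and the other collagens and basement membrane genes, at 44.9, 20.9 and 38.3 against 53.2, 22.6 and 48.0. The TGF-β and IGF list was at 23.3, 17.7 and 21.3 near and at 26.0, 27.1 and 25.2 away, without overlap. It rested on 10 to 85 UMIs a side, and mouse 2 had 11 near and 12 away. Of the 27 lists, the macrophage list was the only other one without overlap. The adipocyte, endothelial and hepatocyte lists were the other ones. Fibrillar collagens other than those of the rule summed to 106 ± 25.3 near and 108 ± 20.0 away, and collagen folding and crosslinking genes to 83.2 ± 10.6 and 86.9 ± 12.9.

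Signals that pass between macrophages and fibroblasts were too sparse to compare gene by gene. No gene of the chemokine and cytokine list passed the filter, and the list summed to 21.4, 30.5 and 12.8 UMIs per 10000 near and to 19.2, 22.6 and 20.4 away. Cxcl12, a chemokine of stromal cells, was the member with the most UMIs (73) and was at 9.04, 9.64 and 8.52 near and at 6.40, 2.26 and 10.2 away. Ccl8, a chemokine that draws monocytes, had 36 UMIs. Igf1, a growth factor made by macrophages and fibroblasts alike, had 38 and was at 3.56, 8.03 and 6.39 near and at 4.80, 4.52 and 2.36 away. Mmp2, a gelatinase of fibroblasts, had 65 UMIs and was at 10.4, 1.61 and 4.26 near and at 6.40, 2.26 and 5.50 away. Of the 10 neutrophil and mast cell genes, 2 had a UMI in the members.

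**Figure D4:**
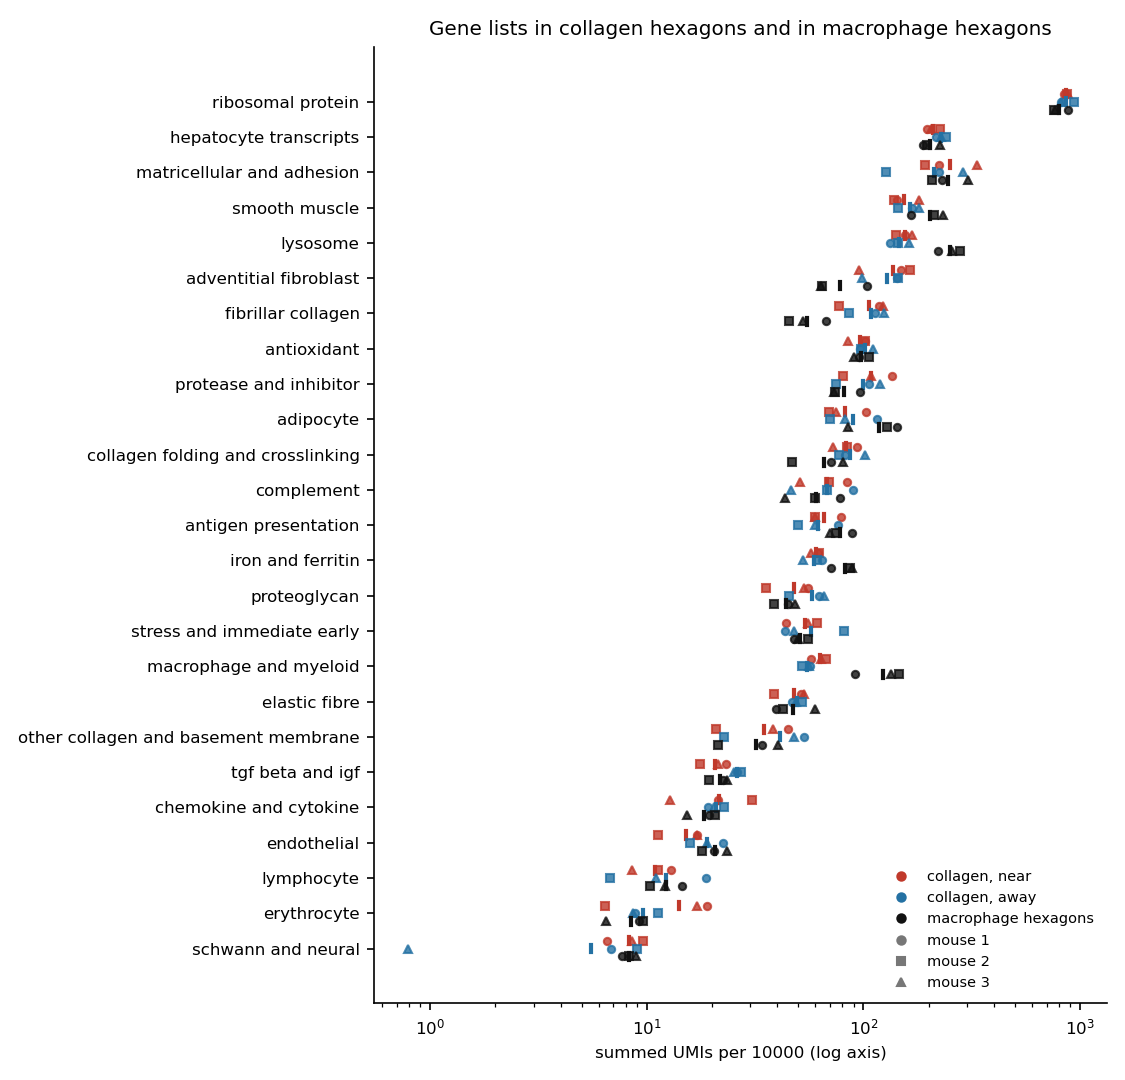
Summed UMIs per 10000 (log axis) of the gene lists in near collagen hexagons (red), away collagen hexagons (blue) and macrophage hexagons (black), with 1 symbol per AAA mouse and a bar for the mean. Near and away points overlap for most lists, and the macrophage and lysosome lists lie higher in macrophage hexagons. By their means other lists do too, among them smooth muscle, adipocyte, iron and ferritin, and antigen presentation. The noncoding list and the neutrophil and mast cell list are not shown.

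By distance, no steady slope was seen. Fn1 was at 25.8, 34.7 and 35.6 UMIs per 10000 in collagen hexagons up to 25 μm from a macrophage hexagon and at 27.7, 28.2 and 50.7 at 25 to 45 μm. It was at 15.7, 21.8 and 11.9 at 45 to 90 μm and at 32.3, 31.6 and 31.6 at 90 to 180 μm. The bin just beyond 45 μm was thus the lowest of the 4 in each mouse, and the farther bin was back at the level of the nearest one. Sparc ran at means of 31.1 ± 4.99, 24.5 ± 9.08, 21.2 ± 12.6 and 25.8 ± 5.07 over the same 4 bins (SD, n = 3). Bgn ran at 35 ± 9.98, 27.8 ± 10.2, 42.3 ± 15.7 and 38.4 ± 19.7. The macrophage and myeloid list was at 72.0 ± 15.8 up to 25 μm, 50.1 ± 12.1 at 25 to 45 μm, 51.0 ± 7.05 at 45 to 90 μm and 72.4 ± 20.3 at 90 to 180 μm. Mouse 2 had 6 hexagons in the last of these bins and 1 beyond 180 μm, so its values there rest on few UMIs.

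**Figure D5:**
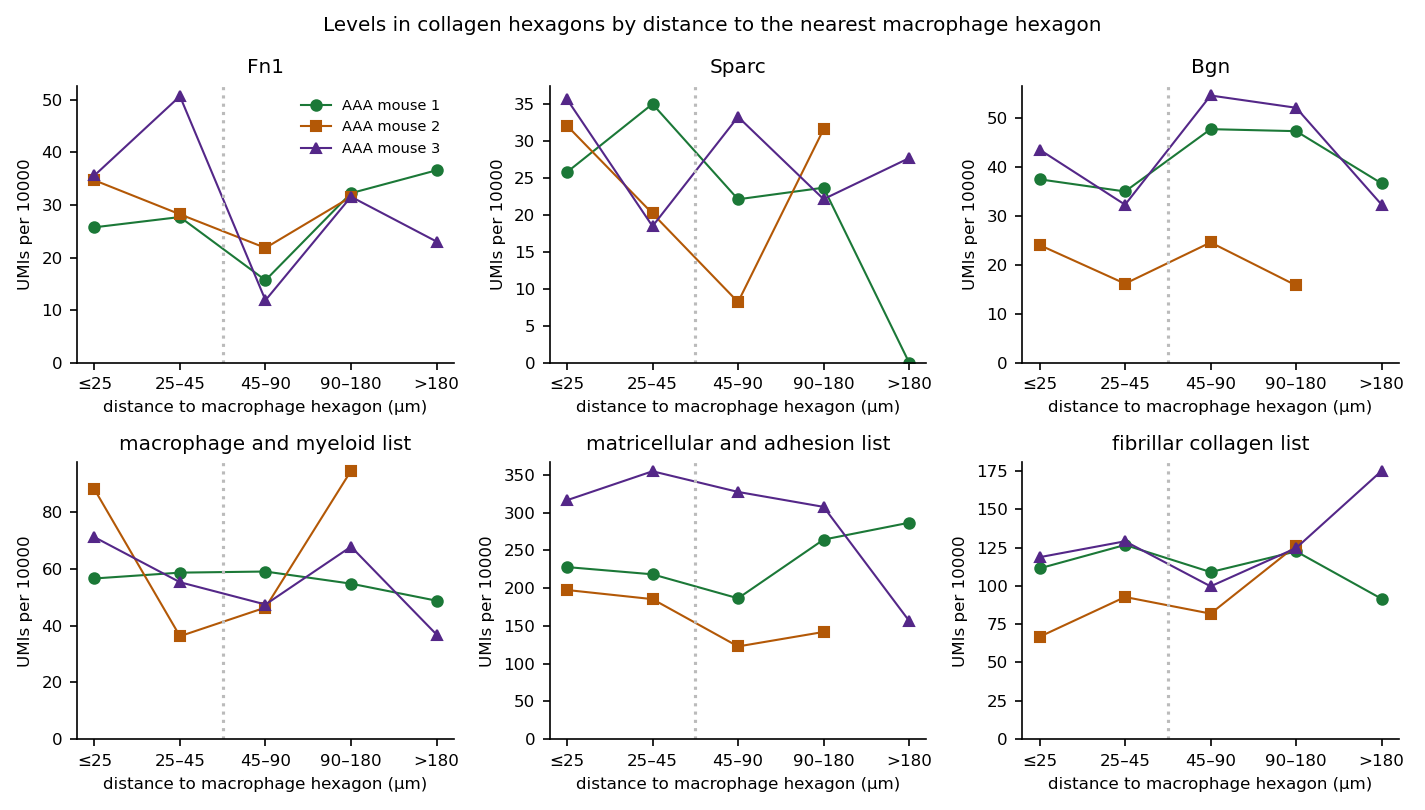
UMIs per 10000 of Fn1, Sparc, Bgn and 3 gene lists in collagen hexagons by distance to the nearest macrophage hexagon (μm), with 1 line per AAA mouse, bins of 5 or more hexagons and a dotted line at 45 μm. Fn1 was lowest at 45 to 90 μm in mice 1, 2 and 3 among bins up to 180 μm.

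To see whether any difference belonged to collagen hexagons, near against away was also fitted in the 4416 AAA hexagons without a gene of the rule, and the 2 differences were compared by an interaction term. Of 515 genes tested, 0 had an interaction at an adjusted p under 0.05 (edgeR, 0% called, smallest adjusted p 0.954), and 17 had an unadjusted p under 0.05. In the other hexagons near against away also gave 0 of 515 (0% called), with 18 (3.5%) at an unadjusted p under 0.05 (edgeR). For Fn1 the log2 fold change in the other hexagons was -0.02, and the difference from collagen hexagons was 0.45 (SE 0.29). For Sparc these values were -0.07 and 0.48 (SE 0.30), and for Bgn 0.13 and -0.46 (SE 0.27). For the lysosomal genes the other hexagons had the higher value, with 0.50 for Psap (difference -0.39, SE 0.28) and 0.39 for Ctsd (difference -0.42, SE 0.33). None of these 5 differences passed the threshold. DESeq2 was not run for the interaction.

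With UMIs over whole genes, introns included, lysosomal genes did pass the test around macrophage hexagons, but in the other hexagons. Kept, collagen, macrophage and other hexagons were chosen anew by these UMIs, so they were not all the same hexagons as with exonic UMIs. Collagen hexagons then numbered 554, 109 and 273 in mice 1 to 3, against 449, 74 and 179. Of 2954 genes tested in the other hexagons, 2 were called (0.0677%), Psap and Ctsd, and both were higher near. Psap was at 12.7, 20.4 and 17.3 UMIs per 10000 near and at 10.4, 10.4 and 11.1 away in mice 1 to 3, a log2 fold change of 0.62 (SE 0.13, edgeR adjusted p = 0.00375). Ctsd was at 7.17, 8.24 and 10.8 near and at 5.06, 4.84 and 6.83 away, a log2 fold change of 0.63 (SE 0.14, edgeR adjusted p = 0.0114). All near values of both genes were above all away values. In collagen hexagons chosen and counted in the same way, the log2 fold change was 0.19 (SE 0.19) for Psap and -0.19 (SE 0.28) for Ctsd, and neither passed. The difference between the 2 kinds of hexagon was -0.45 (SE 0.25) for Psap and -0.75 (SE 0.30, unadjusted p = 0.0117, edgeR adjusted p = 0.997) for Ctsd, so the genes were not shown to be particular to either kind. Both kinds leave out hexagons with a UMI of the 4 macrophage genes. The paper lists Psap and Ctsd among markers of its Gpnmb-high macrophages. By exonic UMIs, macrophage hexagons held Psap at 59.6, 92.9 and 63.9 per 10000 and Ctsd at 33.8, 32.3 and 52.5. Whether RNA of macrophages lay in the other hexagons was not tested.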

How the data were processed

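The values deposited by the authors are UMI counts per gene and barcode, as 1 pooled matrix of both transcript libraries and all sections of the Seq-Scope array. Its columns have no names. From their values and the STARsolo layout, the third was read as exonic and the fourth as whole-gene counts, neither of them scaled. The submitters' processing notes name STARsolo 2.7.5c, mm10 and Seurat 4. Positions were fitted to the section outlines of the supplement (40 edges, 26.6 units per μm, residual SD 57.9 μm), since no label ties a barcode to a section. Genes starting with mt or Gm (8551 of 32285) were left out, and hexagons with 50 or more genes were kept.

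Exonic UMIs were summed per mouse and side. edgeR 4.0.16 (TMM, filterByExpr, quasi-likelihood test with mouse as a block, Benjamini-Hochberg adjustment) was the test, with DESeq2 1.42.0 beside it. The 9 genes of the rule stayed in library sizes and out of the tests. Intervals use the fit's standard errors and 190 degrees of freedom. Pairing comes from the animal, since both sides of a pair lie in the same mouse. Per-mouse readouts were compared by a two-sided exact sign-flip permutation test. Levels are raw UMIs per 10000. The step with edgeR was also run on simulated data built from the real sums.

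The members, the gene lists and the distance were chosen with earlier results of these data known. Named genes were up to 15 past the threshold each way or, failing 10, those of smallest p alike in all 3 mice. Added to them were the 2 members of each list with the most UMIs, genes the paper names for Seq-Scope, and the genes of the rule. The antioxidant list held Selenop and Gpx1 (log2 fold change -0.06) as tested genes, the antigen presentation list H2-Ab1 (0.17), B2m (0.14) and Cd74, the stress list Hspa8 (0.19), and the protease list Cst3. Alternatives were another count column, gene minimum, distance, UMI minimum, grid, filter, scaling, tool or set of mice. The labels give the dose as a concentration and the methods as a rate by body weight, so no dose is printed. Gene positions are from GENCODE vM21 (GRCm38). Single-cell data and staining were not analysed here, and 1 gene that the rule for named genes takes is not reported here.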

Additional observations from a re-analysis of the deposited data

How the results depend on the processing

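In each of 21 other settings, 0 genes were called higher and 0 lower near macrophages, with 24 to 281 genes tested by edgeR, or 11956 without the filter on low counts. The smallest adjusted p over these settings was 0.107, without AAA mouse 1. Leaving out each mouse in turn gave 0 calls in each direction (lowest 0, highest 0), over 38, 270 and 232 genes. Without the replicate block, near and away were not paired by mouse and the count was again 0 of 95. In the 10 other settings of the interaction 0 genes passed. The near side of the other hexagons had 0 calls in 9 of these and 2, Psap and Ctsd, with whole-gene UMIs, where 2954 genes were tested against 515. Whole-gene UMIs also chose the hexagons anew. The share of collagen hexagons near a macrophage hexagon (43.8% ± 15.3, SD, n = 3) follows its definition. It was 60.0% at 65 μm, 24.8% at 25 μm, 18.7% with 3 or more macrophage UMIs and 85.1% with 1 or more, and it ran from 38.7% to 52.6% without one mouse. UMIs per hexagon near over away, at a log2 ratio of 0.26 ± 0.21, came to 0.51 with 1 or more macrophage UMIs. Without one mouse the ratio ran from 0.16 to 0.37. When hexagons were matched by UMIs it was -0.013, but the matching itself sets it near 0. That alternative was added after the depths had been seen.

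Of 43 named genes tested, 6 kept one sign in every setting in which they were tested, and 129 of 747 values had the other sign. In 48 of these the value had also moved by more than its standard error, and none passed the threshold, so the signs of single genes are not firm. The cause was not tested. With 1 or more macrophage UMIs these were Acta2 (0.32), Actb (-0.084), Alb (0.24), Fn1 (-0.41), Mgp (-0.14), Rpl32 (0.080), Scd1 (0.52) and Trf (0.24). With 3 or more they were C3 (-0.32), Flna (0.30), Gpx3 (-0.42), Rpl39 (-0.084), Selenop (-0.032) and Sparc (-0.041). On the shifted grid they were Cfd (-0.48), Flna (0.42), Fn1 (-0.11), Hspa8 (-0.27), Myl9 (-0.55), Rpl32 (0.42), Rps13 (-0.23), Scd1 (0.19), Scp2 (0.062), Sparc (-0.13) and Trf (0.087). At 25 μm they were Apoe (-0.30), Bsg (-0.13), Cst3 (-0.046), Gpx3 (-0.26), Hp (0.29), Scp2 (0.072) and Selenop (-0.050), and at 65 μm Bsg (-0.076), Eef2 (0.058), Myl9 (-0.44), Psap (-0.21) and Selenop (-0.018). Single ones were Mptx1 (0.043) with 4 or more collagen UMIs, Bsg (-0.025) at 75 or more genes, Rpl32 (0.024) and Tagln (0.028) with whole-gene UMIs, Cst3 (-0.0063) without contractile UMIs, Gpx3 (-0.14) without the first section of mouse 1, and Col3a1 (0.23) and Rplp1 (0.33) when thinned. Leaving out one mouse, Apoe ran from -0.27 to 0.30, Cst3 from -0.13 to 0.48 and Selenop from -0.021 to 0.45.

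Depth limits what can be seen: 4424 UMIs in the shallowest sum leave 95 genes to test, with a least total of 73 UMIs. In simulated sums, with many genes changed and all mice alike at baseline, filter and test together found 33.3% of 2-fold changes. Smaller ones were not simulated.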
